A study of Mus musculus with 12 samples.

Results

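The genotype by doxycycline interaction asks whether removing Oct4 has another effect in Phf6 knockout (KO) cells than in wild type (WT) cells. It was read from 8 of the 12 RNA-seq libraries of the series, the doxycycline and control libraries of both genotypes, with 2 replicates in each of 4 groups. In order of use these are Phf6 KO cells with doxycycline, WT cells with doxycycline, untreated Phf6 KO cells and untreated WT cells. All are ZHBTc4 mouse embryonic stem cells of strain 129/Ola at passage 1, first kept on fibroblast feeders and then on gelatin without feeders, in serum medium with leukemia inhibitory factor. The shared background matters for the design, because this line has lost its own Pou5f1 alleles and lives on an Oct4 transgene that doxycycline shuts off. Controls therefore carry the same transgene, and doxycycline was given for 2 days at 0.5 µg/ml by the sample annotations, although the protocol text writes mg in place of µg. The labels do not say how the knockout was made, how many clones were sequenced or whether the replicates are cultures grown apart. The p-values then hold for the spread of these samples, which may be technical.

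Oct4, encoded by Pou5f1, keeps embryonic stem cells pluripotent and holds the trophectoderm regulator Cdx2 in check. Trophectoderm is the outer epithelium of the blastocyst and the source of the placenta. PHF6 binds chromatin in the nucleus through zinc fingers of the PHD type, and the series title ties it to trophectodermal genes. A lower level of such a gene in treated KO cells can be older than the treatment or can come about during it, and only the interaction separates these cases.

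For each gene 3 differences on the log2 scale were taken from 1 edgeR quasi-likelihood fit. The control gap is KO against WT without doxycycline, and the doxycycline gap is KO against WT with it. The response difference is the doxycycline response of KO minus that of WT, which equals the doxycycline gap minus the control gap. Control libraries thus enter both the control gap and the response difference, and an error in them moves these in opposite directions. A call means a Benjamini-Hochberg adjusted p under 0.05 over all 17884 genes tested, of 53379 in the files. Log2 values are given ± SE, and levels are library-scaled read counts (CPM) in the 2 replicates of a group. Levels are compared only within a gene, since CPM is not per length. The 8 libraries held 15799517 to 21441996 counts, mitochondrial genes took 1.32% to 1.64%, and the floor for a count of 0 (3 counts, counting error only) stood at 0.151 to 0.204 CPM.

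Promoters are shown first for 4 genes whose gap arose with doxycycline, chosen for a large response difference among genes with at least 5 CPM in some group. They run from 250 bases before to 50 bases after the annotated start, 5′ to 3′ on the gene's strand, and come from RefSeq on GRCm38.p6. Capitals mark a match to 1 of 4 motifs searched on both strands, namely the octamer ATGCAAA of POU factors, GCCNNNGGC of AP-2 factors, AGATAA of GATA factors and TTTATNG of Cdx factors. Npas4 and Klhdc8a ended higher in treated KO cells, and Klk7 and Myl3 ended lower. Their windows lie at chr19:4989922-4990221 (minus strand), chr1:132298376-132298675 (plus), chr7:43811044-43811343 (plus) and chr9:110763428-110763727 (plus).
Npas4: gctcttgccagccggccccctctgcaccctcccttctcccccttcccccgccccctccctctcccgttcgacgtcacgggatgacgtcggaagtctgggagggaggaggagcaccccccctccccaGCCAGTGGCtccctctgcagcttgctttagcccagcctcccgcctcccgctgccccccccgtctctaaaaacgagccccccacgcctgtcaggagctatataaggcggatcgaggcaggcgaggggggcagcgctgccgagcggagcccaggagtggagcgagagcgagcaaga
Klhdc8a: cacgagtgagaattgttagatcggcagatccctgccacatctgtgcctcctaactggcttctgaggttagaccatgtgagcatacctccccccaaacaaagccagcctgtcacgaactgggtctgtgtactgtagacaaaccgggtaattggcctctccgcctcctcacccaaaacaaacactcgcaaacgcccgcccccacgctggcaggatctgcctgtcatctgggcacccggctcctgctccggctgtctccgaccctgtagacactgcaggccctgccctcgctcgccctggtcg
Klk7: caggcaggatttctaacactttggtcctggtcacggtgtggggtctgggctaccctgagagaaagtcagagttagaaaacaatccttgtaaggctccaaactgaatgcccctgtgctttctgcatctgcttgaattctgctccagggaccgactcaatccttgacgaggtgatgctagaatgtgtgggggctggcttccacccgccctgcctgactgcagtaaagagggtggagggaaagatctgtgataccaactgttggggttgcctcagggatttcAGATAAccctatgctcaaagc
Myl3: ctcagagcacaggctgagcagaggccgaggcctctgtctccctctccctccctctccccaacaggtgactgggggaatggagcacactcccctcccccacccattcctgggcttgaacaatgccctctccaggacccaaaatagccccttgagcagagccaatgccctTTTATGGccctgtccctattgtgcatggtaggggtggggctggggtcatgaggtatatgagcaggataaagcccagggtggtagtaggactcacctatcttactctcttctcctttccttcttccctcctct
The AP-2 match of Npas4 lies at position -124 from the start, the GATA match of Klk7 at position 30 and the Cdx match of Myl3 at position -82. Klhdc8a has none of the 4 motifs in its window. The gene annotation places Myl3 at 110741861 to 110769798, so the window of Myl3 lies inside its gene span. A promoter was found for 12326 of the 17884 genes tested (68.9%), and of those windows 3.39% held the octamer, 24.9% AP-2, 6.47% GATA and 6.91% Cdx. Genes that ended lower through a gap arising with doxycycline had promoters for 615 of 786, with shares of 4.07%, 27.8%, 4.07% and 5.85% in the same order. For those that ended higher, 526 of 717 had one, with 3.42%, 30.4%, 5.32% and 4.94%. A match is a run of letters and not a binding site.

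The knockout was checked in every library. Phf6 (ENSMUSG00000025626.16) lay on chromosome X from 52912266 to 52956943 (GRCm38). It had 7.38 and 8.19 CPM in treated KO cells, 35.1 and 29.9 CPM in treated WT cells, 4.49 and 6.5 CPM in KO controls and 42.8 and 40.2 CPM in WT controls. All 4 KO libraries were below all 4 WT libraries. The gap was narrower with doxycycline, with a response difference of 0.85 ± 0.18 (edgeR adjusted p = 0.00094), since Phf6 rose by 0.49 in KO cells while the WT response was -0.36. The exons from which the KO reads came cannot be read from totals per gene.

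Doxycycline silenced Pou5f1 in both genotypes, and further in KO cells. Pou5f1 (chromosome 17) had 13 and 14.3 CPM in treated KO cells against 34 and 46.3 CPM in treated WT cells, and 1196 and 1193 CPM in KO controls against 1031 and 1013 CPM in WT controls. The groups do not overlap in either condition. Its response was -6.45 in KO and -4.65 in WT cells, a response difference of -1.80 ± 0.16 (adjusted p = 9.6e-06). The control gap of 0.22 ± 0.09 was not called (adjusted p = 0.075), and the doxycycline gap of -1.57 ± 0.13 was. The 2 genotypes thus did not reach the same residual Pou5f1 level, and the part of this difference in the results below was not tested.

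The doxycycline response differed between the genotypes for 3425 genes, 19.2% of those tested. It was more positive in KO cells for 1630 (9.11%) and more negative for 1795 (10%), and 833 (4.66%) differed at least 2-fold. All 4 KO responses, formed from 2 treated and 2 control libraries, lay on 1 side of all 4 WT responses in 7527 genes (42.1%). Over all genes tested the median response difference was -0.01 and the median size 0.28. The split between directions depends on scaling, since 47.6% of the calls were positive with the trimmed mean factors used here and 61.9% with upper-quartile factors, which moved the median of all genes to 0.05. In the same fit the control gap was called for 5369 genes (30% of those tested, 2713 higher or 15.2% and 2656 lower or 14.9%). The doxycycline gap was called for 6614 genes (37%, with 3197 or 17.9% higher and 3417 or 19.1% lower).

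The genes were then sorted by their 3 calls. A gap arose with doxycycline where the response difference and the doxycycline gap were called and the control gap was not. This held for 1503 genes, 717 higher and 786 lower in treated KO cells. In 359 genes a gap of the same sign widened, in 169 it narrowed, in 806 it closed (the doxycycline gap was not called) and in 464 it reversed its sign. Another 124 genes had a response difference without a call of either gap. A further pattern has no called response difference: in 2100 genes a control gap was carried over with the same sign, 965 higher and 1135 lower in KO cells.

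**Figure D1:**
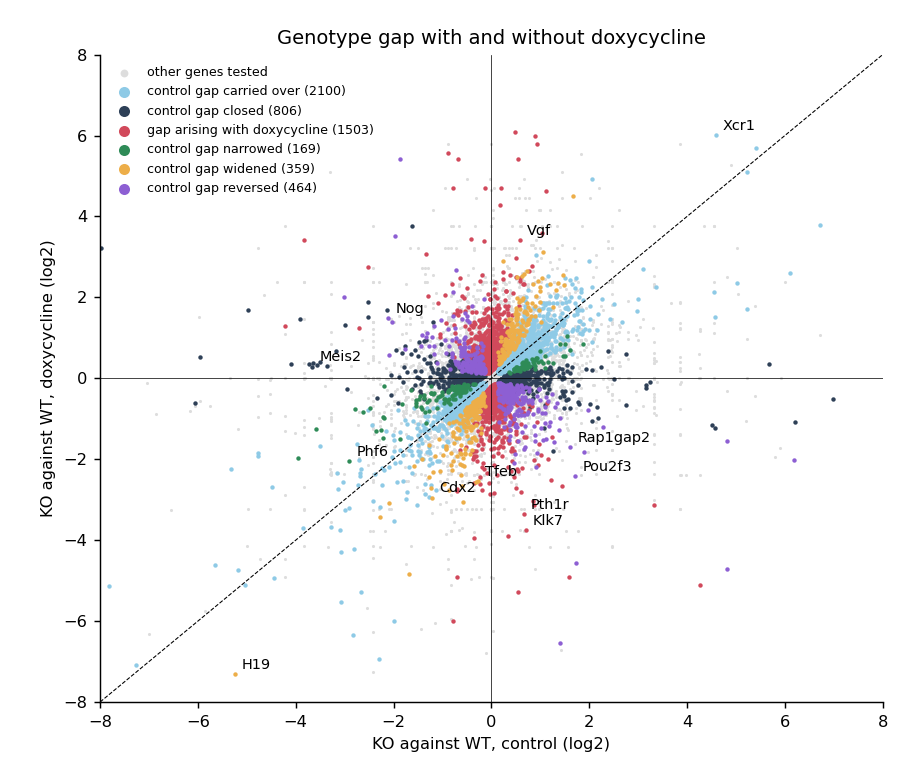
Control gap (x axis) and doxycycline gap (y axis) of every gene tested, KO against WT on the log2 scale, coloured by class, with the number of genes in each class in the legend; 6 genes lie outside the axes, and genes on the dashed diagonal have no response difference. The 1503 genes whose gap arose with doxycycline stand along the vertical axis, the 806 with a closed gap along the horizontal axis, and the 464 with a reversed gap in the upper left and lower right.

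Read from the treated cells, older gaps and gaps without a control call were both common. Of the 6614 genes with a doxycycline gap, 2628 (39.7%) already had a control gap of the same sign and 464 (7.02%) had 1 of the opposite sign. The remaining 3522 (53.2%) had no called control gap, and the interaction was called for 1503 of them. For the other 2019 neither reading was established. Among the 1416 doxycycline gaps of at least 2-fold, 561 (39.6%) had a control gap of the same sign, 325 arose with doxycycline and 463 could not be placed.

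A missed control call does not show that the genotypes were equal before treatment. For 1128 of the 1503 arising genes (509 higher and 619 lower) the 95% interval of the control gap lay wholly within 0.5 of 0. For 131 of the others it reached 1 or beyond. In 26 of the 1503 no control library had 10 counts. In the same way, 1370 of the 2100 carried genes had an interval of the response difference within 0.5 of 0.

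**Figure D2:**
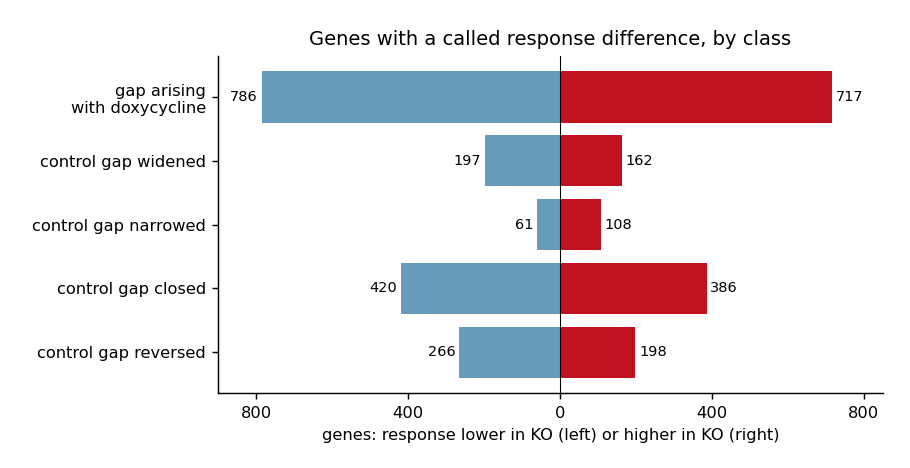
Number of genes with a called response difference in each of 5 classes, with those more negative in KO cells drawn to the left and those more positive to the right. The class of gaps arising with doxycycline holds 786 and 717 genes, the closed class 420 and 386, the reversed class 266 and 198, the widened class 197 and 162 and the narrowed class 61 and 108.

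In most of the 3425 genes the 2 responses had the same called direction or only 1 of them was called. Among genes more negative in KO cells, 551 rose in both genotypes but less in KO cells, 467 fell in both but further in KO cells, 337 rose in WT cells with no called KO response and 292 fell in KO cells with no called WT response. Another 142 fell in KO cells and rose in WT cells. Among genes more positive in KO cells, 530 rose in both genotypes and more in KO cells, 360 fell in both but less in KO cells, 334 fell in WT cells with no called KO response and 284 rose in KO cells with no called WT response. Opposite called directions with a KO rise and a WT fall were found in 114.

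Several trophectoderm transcription factors were lower in KO cells before treatment, and for 4 of them the gap widened. In controls 8 of the 16 tested were called lower in KO cells and 3 higher, against 14.9% and 15.2% of all genes. Of 16 tested, 8 responded less in KO cells and 2 more (50% and 12.5% of the list, against 10% and 9.11% of all genes), with a median response difference of -0.71. Cdx2, the homeobox regulator of trophectoderm, had 15.2 and 16.1 CPM in treated KO cells, 117 and 125 CPM in treated WT cells, 0.641 and 0.304 CPM in KO controls and 1.18 and 0.996 CPM in WT controls. Treated groups are far apart and control groups are apart near 1 CPM. The response difference was -1.75 ± 0.50 (adjusted p = 0.013), on top of a control gap of -1.21 ± 0.42, and the call was lost without KO control replicate 1 (-1.13). Better measured was Tfap2c, an AP-2 factor of trophoblast, with 58.8 and 58.9 CPM in treated KO cells, 288 and 330 CPM in treated WT cells, 38.6 and 37.5 CPM in KO controls and 58.7 and 59.1 CPM in WT controls. KO cells with doxycycline reached the WT control level and no more, a response difference of -1.76 ± 0.10 beside a control gap of -0.63 ± 0.07. Elf3, an epithelial ETS factor, had 37.4 and 37.6 CPM in treated KO cells, 172 and 194 CPM in treated WT cells, 16.7 and 17.1 CPM in KO controls and 34.8 and 35.4 CPM in WT controls, and its gap widened by -1.23 ± 0.11. The gap of Gata2, a GATA factor of trophoblast, widened by -1.08 ± 0.16 (60.9 and 57.8 CPM in treated KO cells, 157 and 175 CPM in treated WT cells, 5.64 and 5.41 CPM in KO controls, 7.82 and 6.79 CPM in WT controls). The call for Gata2 was lost with offsets from the deposited effective lengths. Elf3 lies on chromosome 1, where genes with at least 1 CPM had a median control gap of -0.47.

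Other factors of the lineage followed different courses. Hand1, a factor of trophoblast giant cells, was the only tested factor of the list whose gap arose with doxycycline. It had 48.6 and 52.8 CPM in treated KO cells, 76.9 and 86.2 CPM in treated WT cells, 2.11 and 2.86 CPM in KO controls and 2.41 and 2.05 CPM in WT controls. Its response difference of -0.85 ± 0.25 (adjusted p = 0.016) was lost without KO control replicate 2 or WT control replicate 2 and with effective-length offsets. Tead4, which acts upstream of Cdx2, reversed, with a doxycycline gap of -0.45 after a control gap of 0.28. Tfap2a, another AP-2 factor, narrowed: it had 2.24 and 2.33 CPM in treated KO cells, 3.75 and 4.29 CPM in treated WT cells, 0.192 and 0.425 CPM in KO controls and 1.59 and 2.37 CPM in WT controls. Its response difference of 1.81 ± 0.46 was lost without KO control replicate 1 and is -0.07 when taken in CPM instead of log2. Gata3 and Esx1 had no called response difference. Gata3 had a doxycycline gap of -0.74 and a control gap of -1.58, and its response difference of 0.83 had a 95% interval of 0.07 to 1.59 before adjustment (adjusted p = 0.12). Esx1 had gaps of -1.89 with doxycycline and -1.62 in controls, and a difference of -0.27 with an interval of -0.70 to 0.16. Eomes gave 0.35 ± 0.30 (adjusted p = 0.47), and Elf5 had 0 to 4 counts and was not tested.

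The epithelial genes of trophectoderm included both older and newer gaps. Of 25 tested, 8 were more negative and 3 more positive, with a median of -0.07, against 10% and 9.11% of all genes. A gap arose in 4 and was carried over in 6, against 8.40% and 11.7% of all genes. Krt8 and Krt18, the keratin pair of simple epithelia, carried over a lower level. Krt8 had 798 and 722 CPM in treated KO cells, 1037 and 1141 CPM in treated WT cells, 27.1 and 21.9 CPM in KO controls and 36.1 and 34.7 CPM in WT controls. Its response difference was 0.02, with a 95% interval of -0.26 to 0.29, against gaps of -0.53 in controls and -0.52 with doxycycline. Krt18 gave -0.02 (-0.33 to 0.28). Krt7, a keratin of trophoblast, instead had a gap that arose with doxycycline, at 14.7 and 13.7 CPM in treated KO cells, 44.6 and 51.9 CPM in treated WT cells, 1.28 and 1.58 CPM in KO controls and 1.88 and 2.62 CPM in WT controls. The response difference of Krt7 was -1.13 ± 0.29 (adjusted p = 0.0054), lost without KO control replicate 2 or WT control replicate 1. The claudins Cldn6 and Cldn4 went opposite ways, at -0.41 (arising) and 0.48 (narrowed).

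**Figure D3:**
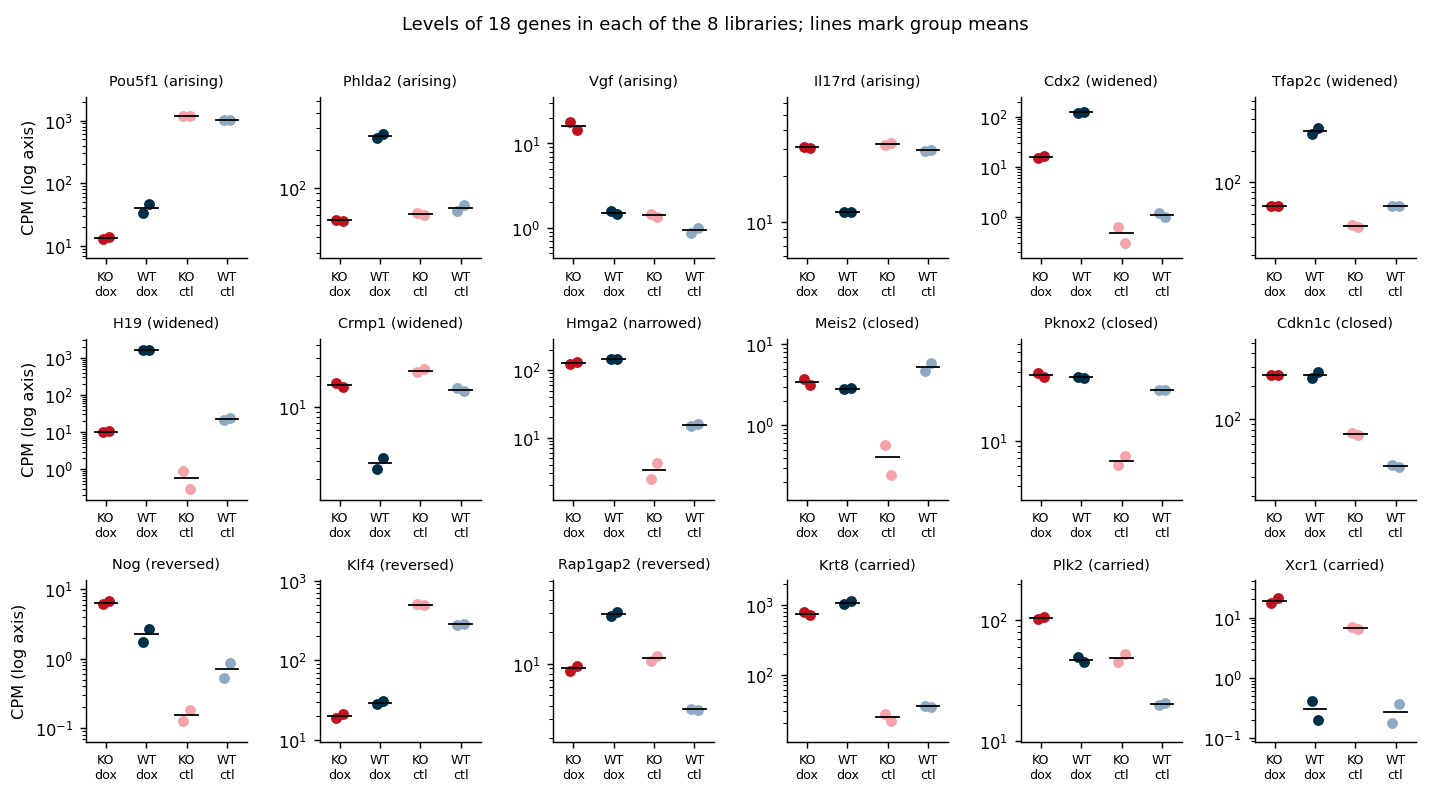
Level in CPM (log axis) of 18 genes in treated KO, treated WT, control KO and control WT cells from left to right, 1 point per library and a line at the mean of 2, with the class in each title. Cdx2, Tfap2c and H19 are lower in KO cells in both conditions and by more with doxycycline, Phlda2 and Vgf differ with doxycycline, Krt8 and Plk2 keep their gap, and Klf4 and Rap1gap2 change sides.

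Placental genes came next. Of 22 placental genes tested, 7 were more negative and 3 more positive in KO cells (median -0.64), against 10% and 9.11% of all genes. Of the 22, 4 had a gap that arose and 3 a gap that widened, against 8.40% and 2.01% of all genes tested. Phlda2, an imprinted brake on placental growth, had 54.9 and 54.3 CPM in treated KO cells, 250 and 270 CPM in treated WT cells, 63 and 59.8 CPM in KO controls and 64.3 and 72.2 CPM in WT controls. The 3 groups other than treated WT cells lie within 54.3 to 72.2 CPM. Phlda2 rose by 1.93 in WT cells while its KO response was -0.17, a response difference of -2.10 ± 0.09 (adjusted p = 3.7e-16), and the control gap of -0.15 was not called. Ascl2, a spongiotrophoblast regulator from the same imprinted region of chromosome 7, had 9.96 and 12.7 CPM in treated KO cells, 66.3 and 77.6 CPM in treated WT cells, 3.14 and 4.92 CPM in KO controls and 5.59 and 6.79 CPM in WT controls. Its small control gap of -0.61 ± 0.21 widened by -2.06 ± 0.25.

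H19 and Igf2, a noncoding RNA and a fetal growth factor that share an imprinting control region, both widened. H19 had 10 and 10.5 CPM in treated KO cells, 1593 and 1669 CPM in treated WT cells, 0.897 and 0.304 CPM in KO controls and 21.8 and 23.7 CPM in WT controls. Most of its doxycycline gap of -7.31 was present in controls (-5.24 ± 0.18), and the response difference of -2.07 ± 0.38 rests on few control reads and was lost without KO control replicate 1 (-1.12). Igf2 had 587 and 593 CPM in treated KO cells, 2637 and 2581 CPM in treated WT cells, 13.5 and 11.5 CPM in KO controls and 18.9 and 19.1 CPM in WT controls. For Igf2 the larger part came with treatment, as a control gap of -0.61 ± 0.09 widened by -1.54 ± 0.11 (adjusted p = 2.7e-11). Of the 18 maternally expressed imprinted genes tested 3 were more positive and 6 more negative, and of the 25 paternally expressed ones 6 and 4, against 9.11% and 10% of all genes.

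Several imprinted genes showed the other classes. Peg3, a paternally expressed zinc finger gene, had a gap that arose with doxycycline (230 and 250 CPM in treated KO cells, 591 and 545 CPM in treated WT cells, 69.1 and 79.7 CPM in KO controls, 74 and 66.4 CPM in WT controls, response difference -1.33 ± 0.11). Cdkn1c, a cyclin-dependent kinase inhibitor of placenta, closed its gap: it had 256 and 252 CPM in treated KO cells, 238 and 272 CPM in treated WT cells, 75.3 and 72.2 CPM in KO controls and 38.3 and 37.2 CPM in WT controls. Treated groups overlap, and controls are far apart. Igf2r, the receptor that clears Igf2, reversed with a response difference of -1.11 ± 0.07. It had 237 and 225 CPM in treated KO cells, 370 and 387 CPM in treated WT cells, 179 and 182 CPM in KO controls and 144 and 130 CPM in WT controls. Peg10, a retrotransposon-derived placental gene, was also reversed by the calls, but its control gap was only 0.15, and its response difference was -1.23 ± 0.07.

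Fgf receptors and Wnt6 belong with the gaps that arose. Fgfr2, through which Fgf4 sustains trophoblast stem cells, had 30.6 and 29 CPM in treated KO cells, 85.1 and 87.9 CPM in treated WT cells, 7.69 and 9.97 CPM in KO controls and 9.94 and 10.5 CPM in WT controls. Its response difference was -1.33 ± 0.14 (adjusted p = 4.6e-08). Fgfr3, a sister receptor, moved the other way, with 11.8 and 10.5 CPM in treated KO cells, 3.27 and 5.15 CPM in treated WT cells, 6.09 and 5.84 CPM in KO controls and 6.59 and 5.23 CPM in WT controls. The control groups of Fgfr3 interleave, and the response difference was 1.36 ± 0.24. Wnt6, a secreted Wnt ligand, had 7.83 and 5.92 CPM in treated KO cells, 43.3 and 49.3 CPM in treated WT cells, 1.22 and 0.912 CPM in KO controls and 1.06 and 1.37 CPM in WT controls, a response difference of -2.56 ± 0.38.

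Feedback and target genes of Fgf and ERK signaling leaned to KO cells. Of 21 tested, 11 were more positive and 2 more negative, with a median of 0.52, against 9.11% and 10% of all genes. The median response of the list was negative in both genotypes, at -2.17 in KO and -1.70 in WT cells. Il17rd, an antagonist of Fgf receptors, had 31.2 and 30.7 CPM in treated KO cells, 11.6 and 11.6 CPM in treated WT cells, 32 and 33.2 CPM in KO controls and 29.4 and 29.8 CPM in WT controls. It stayed at its control level in KO cells (response -0.08) while the WT response was -1.35, and its gap arose with doxycycline (1.27 ± 0.11, adjusted p = 2.5e-09). Spry4 and Dusp6, inhibitors of the ERK cascade, had small control gaps of 0.41 and 0.55 that widened by 1.06 and 0.48. Egr1, an immediate early target of ERK, widened by 1.47 ± 0.16. It had 11 and 13.3 CPM in treated KO cells, 3 and 3.08 CPM in treated WT cells, 106 and 106 CPM in KO controls and 70.9 and 77.5 CPM in WT controls, and the same difference taken in CPM is negative (-23.1).

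Pluripotency genes leaned to a more negative response in KO cells. Of 29 tested, 16 were more negative and 4 more positive (55.2% and 13.8% of the list), with a median of -0.56. The shares of all genes tested were 10% and 9.11%. Of the 29, 8 had a gap that arose with doxycycline, 8 a gap that widened, 3 that reversed, 1 that narrowed and 3 that was carried over. In the same order, these classes held 8.40%, 2.01%, 2.59%, 0.945% and 11.7% of all genes tested. Klf4, a pluripotency factor of the LIF pathway, reversed: it had 19.1 and 21 CPM in treated KO cells, 27.9 and 30.7 CPM in treated WT cells, 503 and 495 CPM in KO controls and 280 and 287 CPM in WT controls. The control gap was 0.82 ± 0.05, the doxycycline gap -0.55 ± 0.08 and the response difference -1.37 ± 0.09. Tdgf1, a coreceptor of Nodal, reversed likewise, with 6.15 and 5.5 CPM in treated KO cells, 15.2 and 14.4 CPM in treated WT cells, 932 and 934 CPM in KO controls and 591 and 614 CPM in WT controls, and a response difference of -1.97 ± 0.32.

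Core factors differed among themselves. Nanog had 111 and 114 CPM in treated KO cells, 199 and 208 CPM in treated WT cells, 739 and 770 CPM in KO controls and 964 and 930 CPM in WT controls. Its gap widened by -0.53 ± 0.07 on the log2 scale, whereas the absolute fall was smaller in KO cells, by 101 CPM. Sox2, also a neural progenitor factor, ran opposite, with 60.1 and 66.7 CPM in treated KO cells, 33.5 and 36.3 CPM in treated WT cells, 495 and 505 CPM in KO controls and 381 and 389 CPM in WT controls. Its response difference was 0.48 ± 0.08 on the log2 scale and -86.3 in CPM. Zfp42, a marker of naive stem cells, had a gap that arose (49.6 and 51 CPM in treated KO cells, 68.3 and 68.3 CPM in treated WT cells, 1490 and 1478 CPM in KO controls, 1374 and 1368 CPM in WT controls, -0.56 ± 0.07). Esrrb, a nuclear receptor of self-renewal, gave a small positive difference of 0.39 ± 0.10 that was lost without WT doxycycline replicate 1 and with effective-length offsets.

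Several DNA methylation genes changed sides. Of 11 tested, 8 were more negative in KO cells and 3 were not called, with a median of -0.34, and 5 of the 8 reversed. Of all genes tested 10% were more negative and 2.59% reversed. Tet2, an enzyme that oxidises 5-methylcytosine, had 25.1 and 30.7 CPM in treated KO cells, 51.6 and 46 CPM in treated WT cells, 628 and 631 CPM in KO controls and 437 and 390 CPM in WT controls. Its response difference was -1.41 ± 0.11. Tet1, its paralog, gave -0.72 ± 0.08, and the maintenance enzyme Dnmt1 gave -0.48 ± 0.07, with gaps of 0.25 in controls and -0.23 with doxycycline. Both gaps of Dnmt1 are well below 2-fold.

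Hypoxia and glycolysis genes leaned to the negative side, with 11 of 24 more negative, 3 more positive and a median of -0.23, against 10% and 9.11% of all genes. In controls 11 of the 24 were higher in KO cells and 1 lower, against 15.2% and 14.9%. The same control libraries enter the response differences, so these counts are not separate observations. Ndrg1, a hypoxia-induced gene, reversed, with 20.2 and 21.2 CPM in treated KO cells, 72.7 and 76.7 CPM in treated WT cells, 35.6 and 37 CPM in KO controls and 19.6 and 18.6 CPM in WT controls. Its KO response was -0.81 and its WT response 1.97, so the response difference was -2.78 ± 0.14 (adjusted p = 1e-12). Vegfa, an angiogenic growth factor, stayed flat in KO cells, at 28 and 26.1 CPM with doxycycline, where WT cells had 71.8 and 67.3 CPM. Its controls had 30.1 and 29.4 CPM in KO cells and 34.5 and 34.5 CPM in WT cells, and a small control gap widened by -1.14 ± 0.10. Slc2a1, the glucose transporter Glut1, had a gap that arose (-0.82 ± 0.10). The list also held Eno1, Pgam1 and Aldoa, glycolytic enzymes that were more positive in KO cells by 0.66, 0.30 and 0.29.

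Neural genes leaned to KO cells in their response. Of 25 tested, 8 were more positive and 3 more negative, with a median of 0.68, against 9.11% and 10% of all genes. The list did not rise as a whole, as its median response was -0.45 in KO and -1.32 in WT cells. Its summed level fell from 735 and 744 to 432 and 436 CPM in KO cells, and from 642 and 660 to 240 and 246 CPM in WT cells. The control gap was called higher in KO cells for 7 and lower for 7, against 15.2% and 14.9%. Stmn2, a microtubule regulator of neurons, had 103 and 106 CPM in treated KO cells, 26.1 and 27.6 CPM in treated WT cells, 289 and 289 CPM in KO controls and 316 and 323 CPM in WT controls. The response difference was 2.10 ± 0.07 (adjusted p = 1.3e-17), against a control gap of only -0.14. Gap43, a growth cone protein, crossed more fully (65.9 and 64.6 CPM in treated KO cells, 28.9 and 27.1 CPM in treated WT cells, 26.4 and 25.7 CPM in KO controls, 46.9 and 48.9 CPM in WT controls, 2.10 ± 0.11). Elavl3, an RNA-binding protein of neurons, crossed the other way, at -2.21 ± 0.24. Nes, the progenitor filament nestin, widened by 0.68 ± 0.12, and the axonal filament Nefl kept its gap (-0.12 ± 0.21, adjusted p = 0.76).

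Genes used as feeder fibroblast markers and contractile genes followed. Of 18 genes used as feeder fibroblast markers, 9 were more positive and the other 9 not called (median 0.61). Of 18 contractile and muscle genes 7 were more positive and 2 more negative, with 5 reversed. The shares of all genes were 9.11% more positive, 10% more negative and 2.59% reversed. Ctgf, a matricellular target of the Hippo pathway, had 107 and 86 CPM in treated KO cells, 53 and 58.5 CPM in treated WT cells, 39.7 and 39.5 CPM in KO controls and 73.3 and 71.9 CPM in WT controls. It changed sides, with a response difference of 1.66 ± 0.11. Cyr61, a related gene, gave 1.48 ± 0.09, and Sparc, a matrix protein of parietal endoderm, gave 1.21 ± 0.07. Of the fibroblast markers, Lum had 0 to 2 counts in each of the 8 libraries, and Postn and Dcn reached at most 0.32 and 0.418 CPM. These are low members of the list, and the levels of Col1a1, Col1a2, Thy1 and Pdgfrb are not given here. The summed level of the fibroblast list was 1062 and 976 CPM in treated KO cells, 874 and 969 CPM in treated WT cells, 1362 and 1395 CPM in KO controls and 1716 and 1599 CPM in WT controls. In bulk RNA, more cells of a type and more RNA per cell cannot be told apart.

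In some groups the genotype gap was frequent before treatment. Of 25 p53 targets tested, 18 were higher in KO controls (against 15.2% of all genes) and 7 not called. Of the 25, 9 were carried over, and 2 were more positive and 5 more negative in response (median -0.06). Over all genes tested 11.7% were carried over, 9.11% more positive and 10% more negative. Plk2, a stress-induced kinase, had 103 and 107 CPM in treated KO cells, 49.4 and 45.3 CPM in treated WT cells, 45 and 52.4 CPM in KO controls and 19.9 and 20.9 CPM in WT controls. Its response difference was -0.11, with a 95% interval of -0.32 to 0.11. Of 24 cholesterol synthesis genes, 17 were higher in KO controls and 11 were carried over, with 5 more positive and 1 more negative response (median -0.01, against 9.11% and 10% of all genes). Of 30 ribosome biogenesis genes, 9 were carried over, with 1 more positive and 4 more negative, against 11.7%, 9.11% and 10% of all genes. The ribosome list leaned the other way, with 11 lower and 2 higher in KO controls, against 14.9% and 15.2%. With doxycycline 15 were lower and 1 higher, against 19.1% and 17.9%.

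**Figure D4:**
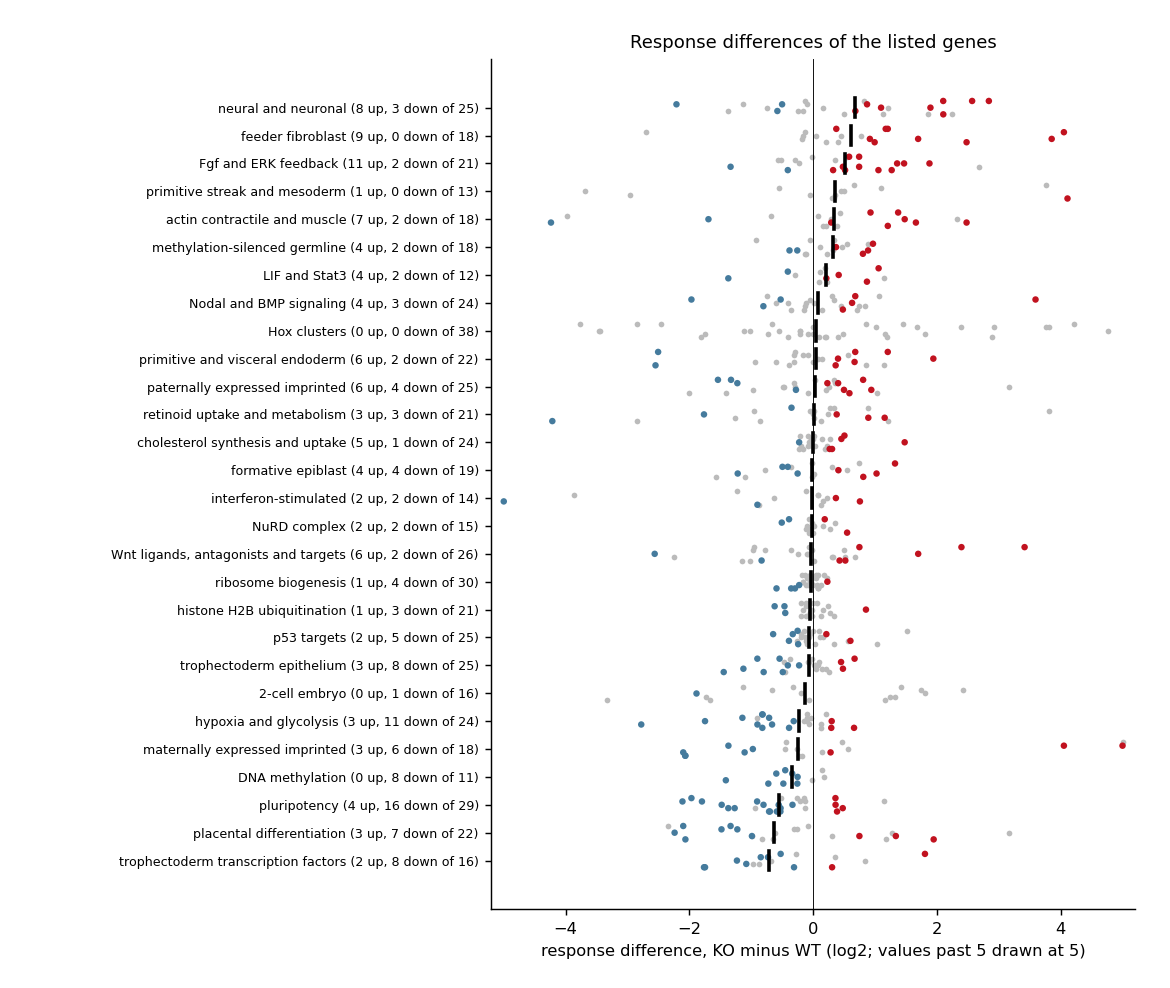
Response difference, KO minus WT on the log2 scale, of every tested gene of 28 lists with at least 10 tested genes, ordered by the list median (black line); red and blue points were called more positive and more negative, grey points were not called, and values past 5 are drawn at 5. Trophectoderm factors, placental and pluripotency genes have the lowest medians (-0.71, -0.64 and -0.56), and neural, fibroblast and Fgf feedback genes the highest (0.68, 0.61 and 0.52).

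The single genes named next had the largest positive response differences among genes whose gap arose, with at least 5 CPM in some group and KO responses apart from WT responses. Vgf, a neuropeptide precursor, had 17.9 and 14.5 CPM in treated KO cells, 1.57 and 1.46 CPM in treated WT cells, 1.47 and 1.34 CPM in KO controls and 0.882 and 0.996 CPM in WT controls. The response difference of Vgf was 2.84 ± 0.41 (adjusted p = 7.1e-06), and the control gap of 0.58 ± 0.32 was not called. Npas4, an activity-induced transcription factor of neurons, had 12.6 and 12.1 CPM in treated KO cells, 3.13 and 3.58 CPM in treated WT cells, 0.0641 and 0.182 CPM in KO controls and 0.176 and 0.374 CPM in WT controls. Its controls were near the floor, and its response difference of 2.95 ± 0.82 was lost without KO control replicate 1 or WT control replicate 2. Klhdc8a, a kelch domain gene, gave 2.73 ± 0.46 and Sp5, a Wnt target, 2.40 ± 0.57. Kirrel2, an adhesion protein, was also picked, but its treated cells had at most 3 counts, so no fold is given. For Vgf, Npas4, Klhdc8a, Sp5 and Kirrel2 the interval of the control gap reached beyond 0.5 in size. Equal levels before treatment were therefore not shown for them. Junb, an AP-1 factor named for its list, had a smaller difference: 133 and 133 CPM in treated KO cells, 68 and 76.7 CPM in treated WT cells, 71.2 and 74.5 CPM in KO controls and 69.9 and 75.7 CPM in WT controls, a response difference of 0.87 ± 0.09 over a control gap of 0.00 ± 0.06.

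Among those with the largest negative response differences, Pth1r, the parathyroid hormone receptor of early extraembryonic endoderm, had 4.42 and 3.64 CPM in treated KO cells, 38.3 and 44.2 CPM in treated WT cells, 1.92 and 2.01 CPM in KO controls and 1.47 and 0.996 CPM in WT controls. The response difference was -4.02 ± 0.35 (adjusted p = 2.8e-09). Klk7, a serine protease, gave -4.45 ± 0.69, with 0.447 and 1.02 CPM in treated KO cells, 9.6 and 9.99 CPM in treated WT cells, 0.769 and 0.425 CPM in KO controls and 0.294 and 0.436 CPM in WT controls. Myl3, a myosin light chain gene, gave -4.24 ± 1.04 with control levels at or under 0.182 CPM, and lost its call without KO control replicate 2. The annotated span of Myl3 overlaps that of Pth1r on the other strand. Tesc, a calcium-binding protein, had 13.1 and 10.4 CPM in treated KO cells, 49.9 and 65.1 CPM in treated WT cells, 5.57 and 5.29 CPM in KO controls and 3.71 and 3.74 CPM in WT controls, a difference of -2.84 ± 0.25. Stra6l, a receptor of retinol-binding protein, fell in KO cells and rose in WT cells (-4.22 ± 0.59). That size rests on treated KO levels of 0.224 and 0.119 CPM, near the floor. For each gene of this paragraph the interval of the control gap reached beyond 0.5 in size, so equal levels before treatment were not shown. Control gaps, not called, were 0.66 for Pth1r (interval 0.04 to 1.29) and 0.54 for Tesc (0.11 to 0.98), opposite in sign to their doxycycline gaps. That of Stra6l was -0.70 (-1.41 to 0.02), with the sign of its doxycycline gap.

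The widened class held Tfeb, a regulator of lysosome genes, and Crmp1, a mediator of semaphorin signals. Tfeb had 11 and 11.2 CPM in treated KO cells, 64.8 and 64.7 CPM in treated WT cells, 61.4 and 53.9 CPM in KO controls and 65.3 and 73.8 CPM in WT controls. It fell in KO cells by 2.38 with a WT response of -0.10, and its control gap of -0.27 widened by -2.28 ± 0.12. Crmp1 had 17.3 and 15.9 CPM in treated KO cells, 2.52 and 3.18 CPM in treated WT cells, 22.2 and 23.3 CPM in KO controls and 15.2 and 14.3 CPM in WT controls, widened by 1.90 ± 0.18. In both genes the change with doxycycline came mainly in 1 genotype, in KO cells for Tfeb and in WT cells for Crmp1. Rapgef3, a cAMP-activated exchange factor, widened by 2.67 ± 0.29 on the log2 scale and by -2.19 in CPM, because the more strongly expressed controls fell in both genotypes. Such sign changes between scales were found in 77 of the 359 widened and 28 of the 169 narrowed genes (21.4% and 16.6%), against 9 of the 1503 that arose and none of the 464 that reversed.

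In the narrowed and closed classes the genotypes were further apart before treatment than with it. Hmga2, a chromatin protein of early differentiation, had 124 and 132 CPM in treated KO cells, 147 and 146 CPM in treated WT cells, 2.43 and 4.32 CPM in KO controls and 14.9 and 16.3 CPM in WT controls. Its control gap of -2.19 ± 0.15 narrowed, and the doxycycline gap was -0.20 ± 0.07. The difference taken in CPM has the opposite sign (-6.70). Meis2, a homeobox gene, closed with 3.75 and 3.17 CPM in treated KO cells, 2.79 and 2.88 CPM in treated WT cells, 0.577 and 0.243 CPM in KO controls and 4.65 and 5.85 CPM in WT controls. Meis2 rose in KO cells and fell in WT cells, a response difference of 3.95 ± 0.36 (adjusted p = 4.8e-09). Pknox2, a partner of Meis factors, closed at a higher level, with 39.3 and 35.9 CPM in treated KO cells, 36.2 and 35.4 CPM in treated WT cells, 6.09 and 7.29 CPM in KO controls and 28 and 28 CPM in WT controls. Ttn, the giant muscle protein titin, closed because the WT level fell, at 2.01 and 1.73 CPM in treated KO cells, 2.25 and 2.27 CPM in treated WT cells, 5.13 and 4.13 CPM in KO controls and 38.2 and 33.4 CPM in WT controls.

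Reversed gaps were mostly small. In 293 of the 464 genes both gaps were at least 0.25, in 114 at least 0.5 and in 28 at least 1. Rap1gap2, which switches off the GTPase Rap1, was among the 28, with 8.56 and 9.5 CPM in treated KO cells, 28.4 and 30.5 CPM in treated WT cells, 10.6 and 11.9 CPM in KO controls and 3.71 and 3.67 CPM in WT controls. Its control gap was 1.61 ± 0.14, its doxycycline gap -1.71 ± 0.11 and its response difference -3.32 ± 0.18. Pou2f3, a POU factor of tuft cells, had 0.112 and 0.239 CPM in treated KO cells, 0.953 and 0.959 CPM in treated WT cells, 16.9 and 16.8 CPM in KO controls and 4.7 and 5.6 CPM in WT controls. It was the reverse for Nog, the secreted Bmp antagonist noggin, with 6.1 and 6.75 CPM in treated KO cells, 1.77 and 2.73 CPM in treated WT cells, 0.128 and 0.182 CPM in KO controls and 0.529 and 0.872 CPM in WT controls. The response difference was -4.13 ± 0.49 for Pou2f3 and 3.59 ± 0.62 for Nog. Treated KO libraries were near the floor for Pou2f3, and control reads were few for Nog, so both sizes are uncertain.

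Genes with a carried gap were often on chromosome 1 where they were lower in KO cells. Of the 1135 carried genes that were lower in KO cells 369 lay on chromosome 1 (32.5%), and of the 965 higher ones 3 (0.311%), where 6.08% of all genes tested lie. The 806 chromosome 1 genes with at least 1 CPM had a median control gap of -0.47 and a median doxycycline gap of -0.47, but a median response difference of -0.02. Of the genes whose gap arose with doxycycline 54 (3.59%) were on this chromosome. The excess was not confined to carried genes, since 44 of the 169 narrowed (26.0%) and 55 of the 359 widened genes (15.3%) lay there. Of the closed genes 40 (4.96%) and of the reversed genes 8 (1.72%) did. All 3 tested genes of the Y-linked list were carried over, with a median response difference of -0.11 and a median control gap of 1.22. The 9 chromosome Y genes with at least 1 CPM had medians of -0.17 and 1.07, and the response difference was called for 1 of them. The part of chromosome dosage in single carried genes was not tested. The largest doxycycline gap among carried genes with at least 5 CPM in some group was that of Xcr1, a chemokine receptor. It had 17.4 and 20.8 CPM in treated KO cells and 0.409 and 0.202 CPM in treated WT cells. Its controls had 6.98 and 6.38 CPM in KO cells and 0.176 and 0.374 CPM in WT cells. The response difference of Xcr1 was 1.42 ± 0.67 and was not called (edgeR adjusted p = 0.15). Its interval was 0.05 to 2.80 before adjustment. Xcr1 rose by 1.51 in KO cells, while WT levels were near the floor in both conditions. An unchanged gap was therefore not shown for Xcr1.

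The retinoic acid libraries shared the fit and so bore on the spread, the scaling and the set of genes tested, and the 8 libraries alone gave 2943 calls in place of 3425. They also give the KO to WT gap in another condition, in separate libraries that went through another RNA extraction kit. That gap was called for 6936 genes (38.8%), and for 5205 of all genes tested (29.1%) it was called with the sign of the doxycycline gap. Of the carried genes 1388 (66.1%) were called with that sign in retinoic acid and 99 (4.71%) with the opposite sign. Of the arising genes 529 (35.2%) had the same sign and 204 (13.6%) the opposite. Of the reversed genes the shares were 26.7% and 28.4%, and of the closed genes 24.6% and 24.6%. In closed genes the doxycycline gap was by definition not called (median size 0.10). Its sign is therefore uncertain there, and no reading is drawn from the even split. The difference between these shares was not tested.

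At the threshold, the called gene nearest to it was 1810010H24Rik and the gene not called nearest to it was Plekha2. The first had a response difference of 1.73 ± 0.62 from at most 0.839 CPM in any library. Plekha2, a phosphoinositide-binding adaptor, had -0.32 ± 0.11 at 29.6 and 32.8 CPM in treated KO cells, 43.9 and 44.6 CPM in treated WT cells, 25.1 and 27.1 CPM in KO controls and 30.8 and 28.6 CPM in WT controls. Across all 8 analyses that left out 1 library, 1757 of the 3425 calls were made every time, as were 607 of the 1503 placements as arising, 940 of the 2100 as carried over, 136 of the 464 as reversed and 121 of the 359 as widened.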

How the data were processed

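Per the submitters' processing notes, reads were handled with STAR 2.5.3a, RSEM 1.3.0 and DESeq2 1.18.1 on mm10. Neither the strand setting nor the annotation is given in the sources used here. The authors deposited RSEM expected counts per gene, which share out multi-mapped reads (9.54% to 10.4% of genes per library were not whole), and their deposited effective lengths, in bases, another value used in 1 alternative. Expected counts were rounded. Near-identical copies and overlapping genes are uncertain. Of 53379 genes, 50604 matched GENCODE release M21 (GRCm38). The filter was filterByExpr (minimum count 10), the scaling TMM (factors 0.901 to 0.982 in the 8 libraries).

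All 12 libraries (6 groups of 2, 6 residual degrees of freedom) entered 1 edgeR 4.0.16 quasi-likelihood fit (limma 3.58.1, R 4.3.3; glmQLFit with robust), with no block, since replicate numbers are not said to pair. SE is the log2 value over the square root of F, and intervals are 95% without adjustment. The count floor covers counting error only. Chi-square over degrees of freedom between replicates was 2.42 to 6.28, above sampling noise. Each library was treated as its own sample, but this value does not show that replicates were cultures grown apart. The fit was tested on simulated data.

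Members and the 31 lists (577 of 626 genes tested) were chosen with earlier results of these data known, and lists are described by counts and medians only. Named genes were 18 regulators and imprinted genes, the largest response differences of each class (5 CPM or more in some group, and all 4 KO responses on 1 side of all 4 WT responses, which 42.1% of genes met) and up to 4 members per list; Stmn2, Il17rd, Cdkn1c, Igf2r, Zfp42, Plk2, Spry4, Dusp6, Tead4, Esx1, Cyr61, Nes, Nefl, Slc2a1, Eno1, Pgam1, Aldoa, Cldn4, Cldn6, Fbxo21, Nos1 and Nradd were added from the lists after their values were seen. Not every gene that the rule picked is reported here. Promoters were for the first 2 arising genes per direction with one in the table, passing over Kirrel2 for its counts, a choice made after seeing values. Alternatives were DESeq2 1.42.0, RLE and upper-quartile factors, no filter, length offsets, 8 libraries, a replicate block, a minimum log2 of 0.5, no chromosome 1 genes, leaving out each library and the CPM scale.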

Additional observations from a re-analysis of the deposited data

Results flagged for a closer look

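Of the named genes 5 were picked because their doxycycline responses had opposite called directions in the 2 genotypes, and in each the difference itself was called by edgeR. Phf6 rose in KO cells and fell in WT cells, with a response difference of 0.85. Meis2 did the same, with 3.95. Stra6l, Aldh1b1 and Rap1gap2 fell in KO cells and rose in WT cells, with -4.22, -2.25 and -3.32. Aldh1b1, a mitochondrial aldehyde dehydrogenase, had 5.2 and 5.5 CPM in treated KO cells, 31.2 and 31.9 CPM in treated WT cells, 15.8 and 15 CPM in KO controls and 17.8 and 20.5 CPM in WT controls. Stra6l had 0.224 and 0.119 CPM in treated KO cells, 5.65 and 5.2 CPM in treated WT cells, 0.961 and 0.973 CPM in KO controls and 1.82 and 1.31 CPM in WT controls.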

How the results depend on the processing

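DESeq2 called 2232 response differences, 1089 of them negative, with 733 strictly arising genes, 206 widened, 88 narrowed, 520 closed and 252 reversed. Effective-length offsets gave 1988 (972 positive, 1016 negative), with 982 arising, 622 strictly arising, 160 widened, 57 narrowed, 497 closed, 230 reversed and 62 undecided. Testing against a minimum log2 of 0.5 in place of 0 left 656 (300 positive, 356 negative), with 356 arising, 151 strictly arising, 15 widened, 3 narrowed, 101 closed, 17 reversed and 285 carried over. Leaving out 1 library at a time gave 2533 to 3491 calls, 1198 to 1640 positive and 1308 to 1851 negative, with 1228 to 1442 arising, 851 to 1123 strictly arising, 201 to 363 widened, 96 to 137 narrowed, 515 to 964 closed, 294 to 439 reversed, 1724 to 2103 carried over and 88 to 146 undecided. The lowest widened count came without KO control replicate 1, the lowest closed and reversed counts without WT control replicate 2, and the lowest narrowed count without WT doxycycline replicate 2. RLE and upper-quartile factors, no filter, the 8 libraries alone and leaving out chromosome 1 genes kept each of these counts within 1.5 times.

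With the replicate block 3316 genes were called and 1469 arose. Deviations of same-numbered replicates correlated at -0.109 to 0.031. With 2 replicates per group this cannot decide whether some libraries shared a batch. With the 2 WT doxycycline numbers crossed in the block, added after seeing the data, 3427 genes were called.

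Named values changed sign as follows, and the cause was not tested. Leaving out 1 library gave -0.13 to 0.18 for Krt8, -0.16 to 0.13 for Krt18 and -4.01 to 1.37 for Xlr3a. Krt18 gave 0.038 with upper-quartile factors and Hydin -0.28 with effective-length offsets. In CPM in place of log2, where the scale itself is the change, the difference was -0.0654 for Tfap2a, 101 for Nanog, -86.3 for Sox2, -1.20 for Kirrel2, -2.19 for Rapgef3, -9.15 for Camkv, -6.94 for Slc13a5, -6.70 for Hmga2, 2.11 for Col4a5, 14.0 for Nr5a2, 4.47 for Aqp3, -0.131 for Apob, -23.1 for Egr1, -15.8 for Crabp1, 14.7 for Dnmt3l, 61.0 for Rpl10l and 0.213 for Zscan4c. Depth limits genes whose controls lie near 3 counts.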

Other observations

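Of 14 interferon-stimulated genes tested, 2 were more positive and 2 more negative, near the 9.11% and 10% of all genes. Bst2, a membrane restriction factor, had a gap that arose with doxycycline, with 26.1 and 25.7 CPM in treated KO cells, 41.7 and 47.9 CPM in treated WT cells, 40.8 and 39 CPM in KO controls and 37.2 and 37 CPM in WT controls. Of 21 retinoid genes 3 were more positive and 3 more negative, also near those shares. Crabp2, a retinoic acid carrier, reversed with 18.1 and 18.3 CPM in treated KO cells, 30.4 and 33.3 CPM in treated WT cells, 5.45 and 7.17 CPM in KO controls and 2.88 and 3.67 CPM in WT controls. Of 21 histone H2B ubiquitination genes 1 was more positive and 3 more negative, with a median of -0.05, against 9.11% and 10% of all genes. Ctr9, a subunit of the PAF1 complex that this list holds, rose less in KO cells: 204 and 208 CPM in treated KO cells, 332 and 331 CPM in treated WT cells, 114 and 109 CPM in KO controls and 116 and 117 CPM in WT controls, a response difference of -0.62 ± 0.07.

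Neighbouring genes had like or opposite response differences. Tesc, Fbxo21 and Nos1 lie within 1 stretch of chromosome 5, and their response differences were -2.84, -2.55 and -2.30. Fbxo21, a ubiquitin ligase subunit, had 301 and 285 CPM in treated KO cells, 1218 and 1291 CPM in treated WT cells, 117 and 115 CPM in KO controls and 87.3 and 81.2 CPM in WT controls. Pth1r and Myl3 on chromosome 9 had -4.02 and -4.24, but Nradd beside Pth1r had 1.04. The annotated spans of Pth1r (110722085 to 110747145, minus strand) and Myl3 (110741861 to 110769798, plus) overlap. Whether reads of 1 were counted for the other was not tested, so their courses may not be separate. Of the genes near Npas4, 2 genes were called with its sign and 2 with the opposite sign, and near Ascl2 1 and 2. How often neighbours share a course over all genes was not examined.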
